A study of Mus musculus with 6 samples.

Results

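The 41 genes described here encode the machinery that dividing cells use to condense, attach and separate their chromosomes and to split in 2. They were chosen by symbol, and all 41 were found, each as a single entry with usable status in every file, among 23091 gene symbols. The data are RNA-seq of mouse CD4 T cells that had been steered to become Th9 cells, helper T cells that make interleukin 9. There were 6 groups of 1 library: cells given interleukin 1β (IL-1β) and cells not given it, each after 1 h of culture, at day 3 of culture, and in vivo. All groups came from wild-type C57/Bl6j mice aged 7 weeks, and all had been cultured from naive CD4 T cells of spleen and lymph nodes on plates coated for CD3 and CD28, in the presence of TGFβ at 2 ng/ml, IL-4 at 20 ng/ml and an antibody that blocks interferon γ. The IL-1β groups also received 10 ng/ml IL-1β. The in vivo cells carried CD45.2, were injected after 3 days of culture into CD45.1 mice, and were sorted 1 week later, so that at harvest the IL-1β treatment lay in the past. RNA came from 300000 cells, and the labels do not say how many mice each library stands for or which tissue the in vivo cells were sorted from.

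Entry into mitosis is driven by CDK1 with cyclins A and B, and exit by the anaphase-promoting complex, which marks cyclin B and securin for destruction. Between these steps the kinetochores attach chromosomes to spindle microtubules, the spindle checkpoint holds anaphase until all are attached, and kinesins, Aurora kinases and cytokinesis proteins move and part the chromosomes and the daughter cells. Most of these transcripts accumulate in G2 and M phase, so that in a mixed population their level is widely used as a mark of proliferation. Activated T cells divide rapidly, whereas naive and memory T cells rest.

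Values are the authors' FPKM (fragments scaled to transcript length and to the number mapped), so levels can be compared between genes, and each value has an interval deposited with it, given below in parentheses. Read depth is unknown. Log2 ratios are of FPKM + 1, which understates the change of low genes. Comparison of a gene required 5 FPKM in 1 or both libraries. Genes counted as higher or lower had a ratio of 2-fold or more and intervals that lay apart. Since each group has 1 library, no difference within a stage has a replicate check and no p-value is given for it. In bulk RNA, fewer dividing cells and less of these RNAs per dividing cell cannot be told apart. The 1 h libraries were made from rRNA-depleted RNA and the other 4 from poly(A)-selected RNA. At 1 h, 765 genes reached 5 FPKM with IL-1β and 631 without it, against 7313 to 8154 in the poly(A) libraries.

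All 14 T cell markers, Cd3e and Cd4 among them, were above 0 in all 6 libraries. Their summed level was 3238 FPKM in vivo with IL-1β, against 3480 FPKM in vivo without it, and 3827 and 3595 FPKM at day 3 with and without IL-1β. Transcripts of other cell types were also present in vivo. The 14 markers of stroma, endothelium and epithelium summed to 17383 FPKM with IL-1β, against 6681 FPKM without it, and 11 of 13 compared were counted as higher with IL-1β. They summed to 29.1 and 30.8 FPKM at day 3, where 4 of the 14 were listed at 0 in each culture, against 0 in vivo. The surfactant gene Sftpc alone stood at 10010.5 FPKM in vivo with IL-1β, against 3512 FPKM without it, both above their own intervals. The 14 myeloid markers found summed to 2377 and 1091 FPKM in vivo and to 181 and 140 FPKM at day 3, with 1 and 2 of them at 0 in vivo and 5 and 6 at day 3. Among them the lysozyme gene Lyz2 stood in vivo at 1614 FPKM with IL-1β and 521 FPKM in its absence. The 8 erythroid and platelet markers summed to 742 and 392 FPKM in vivo and to 22.4 and 10.5 FPKM at day 3. The 7 B cell markers summed to 28.3 and 44.3 FPKM in vivo, and the 5 NK and CD8 markers to 17.3 and 18.3 FPKM.

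At day 3 the mitosis genes were abundant in both cultures. Together the 41 genes summed to 2334 FPKM with IL-1β, against 2475 FPKM without it, 0.569% and 0.686% of all FPKM. Every one of them reached 5 FPKM without IL-1β, and 40 did so with it, the exception being Anln at 4.99 FPKM. One week after injection the sums were 949 FPKM in cells that had been cultured with IL-1β, against 2416 FPKM in cells that had not, or 0.258% and 0.668% of all FPKM. The library in vivo with IL-1β held the lowest of the 4 poly(A) values for all 41 genes. For 33 of the 41 its interval lay entirely below those of the other 3 libraries. For neither count was the matching share of all genes computed, so how particular they are to these genes is not known. Against single libraries, the intervals of 8.33% of all compared genes lay apart and lower relative to in vivo without IL-1β. Relative to day 3 with IL-1β this share was 14.1%.

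**Figure D1:**
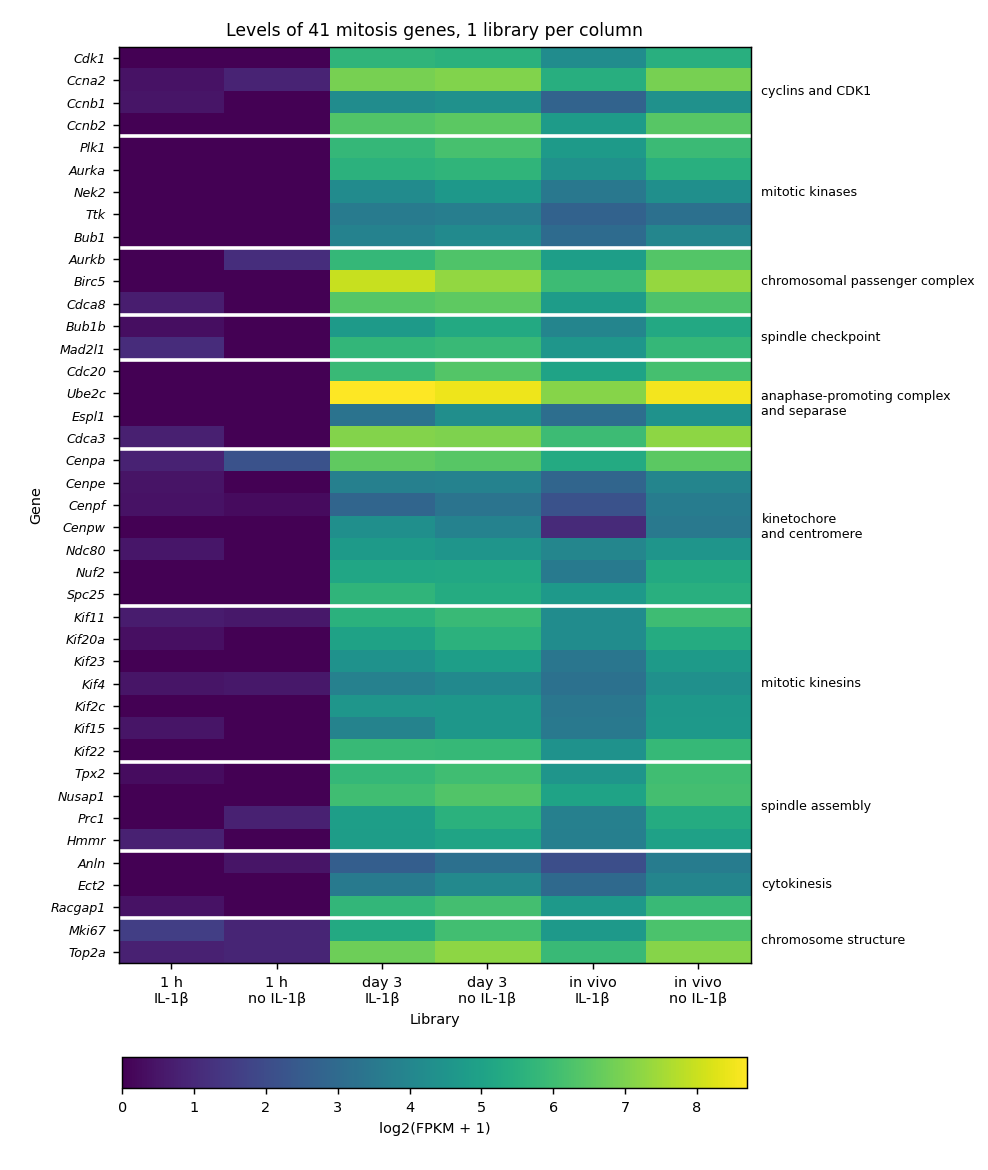
Levels of the 41 genes as log2(FPKM + 1) (colour), with genes as rows grouped by role and the 6 libraries as columns. The 1 h columns lie near 0, and in vivo with IL-1β is the darkest of the 4 poly(A) columns in every row.

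The in vivo comparison asked whether cells that met IL-1β in culture still differed a week after injection. Of the 41 genes, 36 were counted as lower with IL-1β, 0 as higher, and 5 did not meet the rule, in a comparison where 3.48% of all 8639 compared genes were counted as lower and 6.23% as higher. The median log2 ratio of the 41 genes was -1.24, or 2.36-fold lower, against 0.03 for all compared genes. The ratios ran from -2.45 for Cenpw to -0.50 for Ttk, with a standard deviation across genes of 0.33. The T cell markers had a median of -0.06, with 0 of 14 counted either way. The markers of stroma, endothelium and epithelium (median 1.72) and the myeloid markers (3 of 10 compared counted as higher, median 0.63) moved the other way, and their part in the result was not tested. When the IL-1β library was scaled so that the T cell markers had a median ratio of 1, 35 of the 41 genes were still counted as lower, with a median of -1.19. Ect2 was the gene no longer counted.

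**Figure D2:**
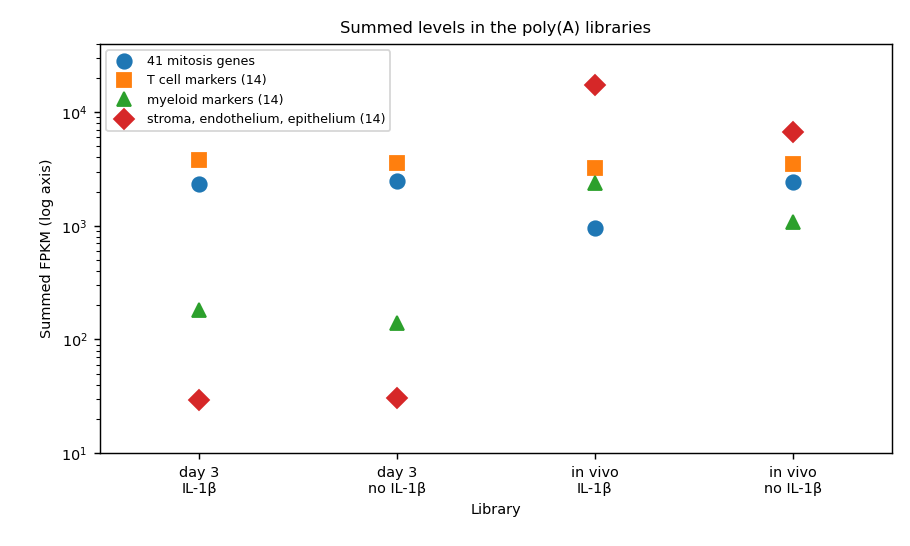
Summed FPKM on a log axis in the 4 poly(A) libraries (columns) for the 41 mitosis genes and for markers of T cells, of myeloid cells, and of stroma, endothelium and epithelium. The mitosis genes stand at 949 FPKM in vivo with IL-1β and at 2334 to 2475 FPKM in the other 3 libraries, while T cell markers stay between 3238 and 3827 FPKM.

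Among the genes that start mitosis, all 4 were counted as lower. Cdk1 (mm9 chr10:68799383-68815660), the kinase at the centre of mitotic entry, stood in vivo at 17.9 FPKM (13.2 to 22.7) with IL-1β, against 43.6 FPKM (35.0 to 51.3) without, a log2 ratio of -1.24. At day 3 it stood at 51.1 and 45.7 FPKM. Ccna2, which encodes cyclin A, stood in vivo at 42.5 FPKM (35.9 to 49.4) with IL-1β, against 120.5 FPKM (108 to 133) without (-1.48), against 120.8 and 131 FPKM at day 3. For both genes the in vivo value with IL-1β was the low one, and the other 3 values were close to each other. The cyclin B genes Ccnb1 (5.90 against 20.0 FPKM, -1.61) and Ccnb2 (26.5 against 86.03 FPKM, -1.66) showed the same order in vivo.

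Of the 5 mitotic kinases, Plk1 and Aurka were counted as lower and Nek2, Ttk and Bub1 were not. Plk1, the Polo-like kinase that acts from centrosome maturation to cytokinesis, stood in vivo at 26.0 FPKM with IL-1β, against 60.7 FPKM without (-1.19). Aurka, the spindle-pole Aurora kinase, stood at 20.0 and 43.6 FPKM (-1.09). Nek2, a centrosome kinase, stood at 10.1 FPKM (6.98 to 13.1) with IL-1β, against 19.0 FPKM (14.3 to 23.5) without. Bub1, a checkpoint kinase of the kinetochore, stood at 7.29 FPKM (5.13 to 9.44) and 14.9 FPKM (11.7 to 18.1). Intervals alone lay apart, with the lower value in IL-1β cells, for 39 of the 41 genes, against 8.33% of all compared genes. For Nek2 (-0.85) and Bub1 (-0.94) the intervals lay apart and the difference stayed under 2-fold. Ttk, which encodes the checkpoint kinase MPS1, had the smallest difference of the 41 genes, at 5.61 FPKM (3.08 to 8.16) with IL-1β, against 8.32 FPKM (5.46 to 11.2) without, with overlapping intervals.

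The chromosomal passenger complex corrects faulty attachments and later directs cytokinesis. Its 3 subunit genes in the set had similar ratios in vivo. Aurkb, its kinase, stood at 28.1 FPKM (20.1 to 34.9) with IL-1β, against 82.4 FPKM (64.3 to 95.5) without (-1.52), Cdca8, which encodes borealin, at 27.0 and 76.3 FPKM (-1.46), and Birc5, which encodes survivin, at 60.7 FPKM (45.4 to 75.9) and 158.7 FPKM (135 to 183) (-1.37). Incenp, the scaffold subunit and not one of the 41 genes, stood at 39.0 and 74.5 FPKM (-0.92) and was not counted. The log2 ratios of the 3 counted subunits, Incenp left out, had a standard deviation of 0.07. The ratio ranges that the intervals allow are far wider, at -2.20 to -0.86 for Aurkb, -2.22 to -0.74 for Cdca8 and -1.99 to -0.82 for Birc5.

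The spindle checkpoint genes Bub1b (14.6 against 37.2 FPKM, -1.29) and Mad2l1 (22.9 against 54.5 FPKM, -1.21), whose proteins BUBR1 and MAD2 restrain CDC20, were counted as lower in vivo with IL-1β. So were all 4 genes grouped with the anaphase-promoting complex and separase. Ube2c, which encodes a ubiquitin-conjugating enzyme of the anaphase-promoting complex, was the most abundant of the 41 genes and made up 14.7% of their summed level in vivo with IL-1β and 15.3% without. It stood at 139.1 FPKM with IL-1β, against 370.1 FPKM without (-1.41), and in each of the 4 poly(A) libraries its value lay above its own deposited interval (87.9 to 132 and 254 to 325 in vivo). Cdc20, which activates the complex, stood at 32.2 and 69.5 FPKM (-1.09). Espl1, the gene of separase, which cuts the cohesin between sister chromatids, stood at 7.74 and 20.6 FPKM (-1.31). Cdca3, which encodes a mitotic entry factor, stood at 61.8 and 148.3 FPKM (-1.25).

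The 7 kinetochore and centromere genes were the most uneven group, with ratios from -2.45 to -0.56 and 5 of 7 counted as lower. Cenpw, which encodes a small histone-fold protein of the inner kinetochore, stood in vivo at 1.07 FPKM (0 to 2.24) with IL-1β, against 10.3 FPKM (5.51 to 14.7) without, the largest difference of the 41 genes at 5.46-fold of FPKM + 1. At day 3 it stood at 18.95 FPKM (12.4 to 25.7) and 13.5 FPKM (8.39 to 18.2), so that its in vivo value with IL-1β is the only low one of the 4. Cenpa, the centromeric histone H3 variant, stood in vivo at 38.6 and 89.3 FPKM (-1.19). The large kinetochore proteins CENP-E, a motor, and CENP-F had low transcript levels, with Cenpe at 6.08 and 14.4 FPKM (-1.12) and Cenpf at 3.55 and 11.5 FPKM (-1.46).

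The NDC80 complex, which grips the microtubule, is built of 4 subunits. Nuf2 stood in vivo at 10.99 FPKM (7.03 to 14.9) with IL-1β, against 38.4 FPKM (29.8 to 45.6) without (-1.72). Ndc80 stood at 14.9 FPKM (9.84 to 20.0) and 22.4 FPKM (15.8 to 29.0) (-0.56), with overlapping intervals. Spc25 stood at 24.6 FPKM (16.6 to 32.7) and 44.3 FPKM (33.4 to 55.3) (-0.82), with intervals apart and under 2-fold. Spc24, the remaining subunit and not one of the 41 genes, was counted as lower at 18.5 FPKM (10.5 to 25.1) against 51.0 FPKM (35.0 to 61.8) (-1.42). The ratio ranges that the intervals allow for Nuf2 (-2.54 to -0.95) and Ndc80 (-1.47 to 0.32) overlap.

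All 7 mitotic kinesins were counted as lower. Kif11 (mm9 chr19:37450893-37496349), the motor that pushes spindle poles apart, stood in vivo at 17.9 FPKM (14.5 to 21.3) with IL-1β, against 62.6 FPKM (54.8 to 69.6) without, a 3.36-fold difference of FPKM + 1 and the largest among the kinesins. Kif15, a motor that can share this task, stood at 10.4 FPKM (7.86 to 12.8) and 24.4 FPKM (20.2 to 28.5) (-1.16). Kif22, a chromosome-arm motor, stood at 20.5 and 55.8 FPKM (-1.40), Kif2c, which depolymerizes microtubules at centromeres, at 9.97 and 23.8 FPKM (-1.18), and Kif4, a motor of chromosomes and the midzone, at 8.49 and 19.7 FPKM (-1.12). Kif23 (9.59 against 25.9 FPKM, -1.34) and Racgap1 (24.5 against 58.9 FPKM, -1.23) encode the 2 proteins of centralspindlin, the complex that bundles the midzone. Kif20a, a kinesin of the midzone and cytokinesis, stood at 17.8 and 39.5 FPKM (-1.11).

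The spindle assembly genes Tpx2 (22.3 against 64.0 FPKM, -1.48), Prc1 (12.7 against 40.0 FPKM, -1.58), Hmmr (12.6 against 30.2 FPKM, -1.20) and Nusap1 (31.7 against 67.2 FPKM, -1.06) were counted as lower, as were the cytokinesis genes Anln (3.27 against 11.7 FPKM, -1.57) and Ect2 (6.81 against 14.7 FPKM, -1.01). TPX2 activates Aurora A at the spindle, PRC1 crosslinks midzone microtubules, and ECT2 switches on RhoA for the contractile ring that anillin organizes. Mki67, the proliferation marker that coats mitotic chromosomes, stood at 25.3 FPKM (22.6 to 28.1) with IL-1β, against 73.7 FPKM (68.4 to 78.8) without (-1.50). Top2a, the topoisomerase that untangles sister DNA, stood at 59.3 FPKM (52.0 to 66.3) and 138.6 FPKM (126 to 148) (-1.21). With a pseudocount of 5, which weighs down low genes, 27 of the 36 genes stayed counted as lower, and Aurka, Cenpe, Cenpf, Kif20a, Kif4, Kif2c, Kif15, Nusap1 and Ect2 did not.

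**Figure D3:**
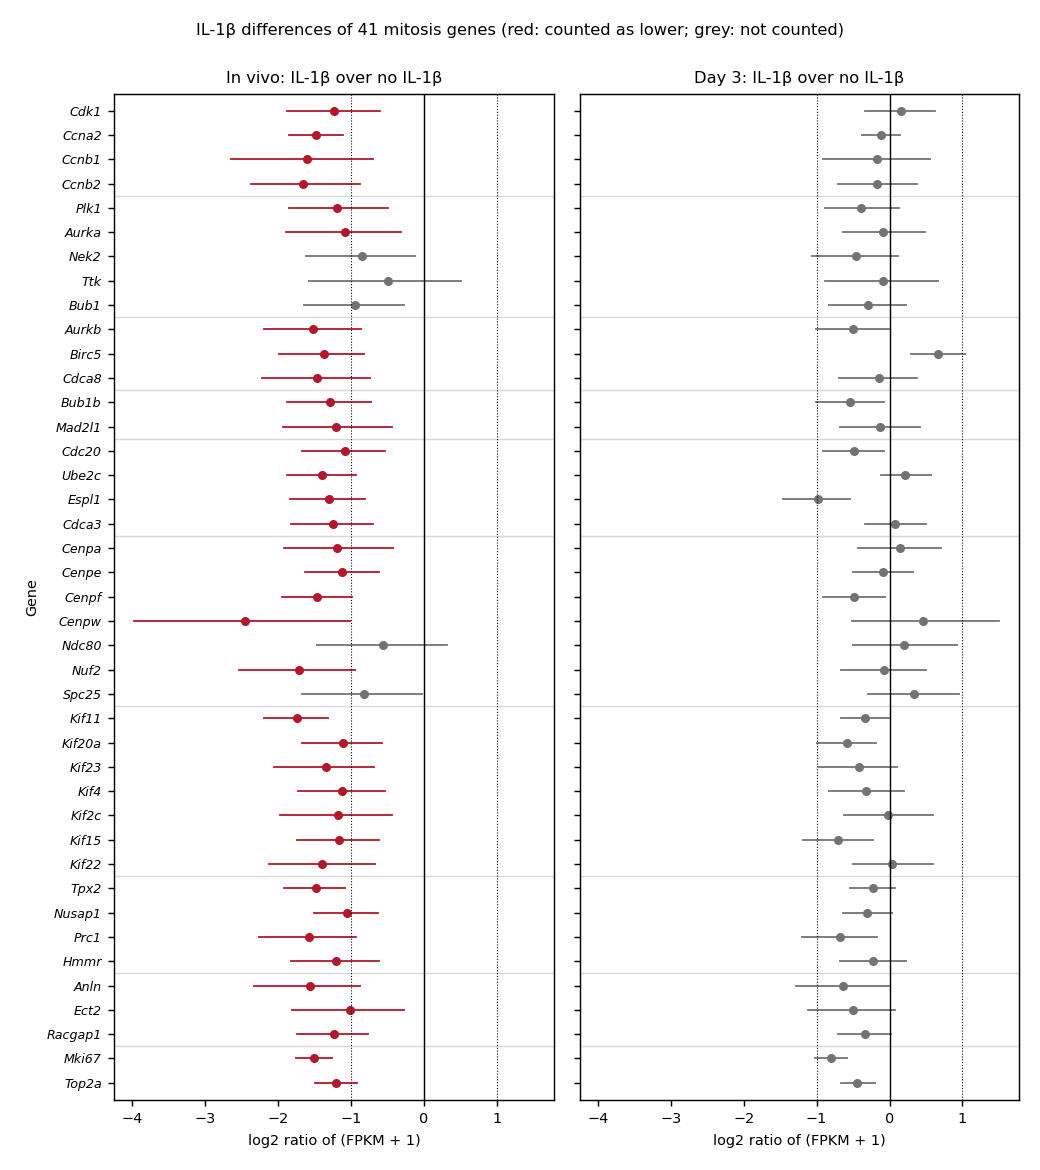
Log2 ratio of (FPKM + 1), IL-1β over no IL-1β, for each of the 41 genes in vivo (left) and at day 3 (right). Bars span the lowest to the highest ratio that the deposited intervals allow, dotted lines mark 2-fold, and red marks the 36 genes counted as lower in vivo, against 0 at day 3.

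DNA upstream of the mitosis genes' start sites was examined for 2 short elements that many G2 and M phase promoters share as textbook knowledge. These are the cell cycle genes homology region (TTTGAA) and the CCAAT box (CCAAT), each sought on both strands. The genes were chosen as mitosis genes, so the shares of promoters with an element describe that class, whatever the IL-1β difference. The 4 promoters shown are those of the counted genes with the most negative in vivo ratio among the 37 members matched by symbol in RefSeq's promoters (GRCm38.p6, 250 bases before the gene's start, 5′ to 3′ on the gene's strand, capitals marking either element). They are Cenpw (chr10:30200541-30200790, minus strand), Kif11 (chr19:37376132-37376381, plus strand), Nuf2 (chr1:169531465-169531714, minus strand) and Ccnb2 (chr9:70421555-70421804, minus strand).
Cenpw: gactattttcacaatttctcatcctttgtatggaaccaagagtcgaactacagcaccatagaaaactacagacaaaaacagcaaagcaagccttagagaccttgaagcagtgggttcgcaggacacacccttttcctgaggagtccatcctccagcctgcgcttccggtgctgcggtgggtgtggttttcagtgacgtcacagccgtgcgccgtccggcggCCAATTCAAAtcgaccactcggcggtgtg
Kif11: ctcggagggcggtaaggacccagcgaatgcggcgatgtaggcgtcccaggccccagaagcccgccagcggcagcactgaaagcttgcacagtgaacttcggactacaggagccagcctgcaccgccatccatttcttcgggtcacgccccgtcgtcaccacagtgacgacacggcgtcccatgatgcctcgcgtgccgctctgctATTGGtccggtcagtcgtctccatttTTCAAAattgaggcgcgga
Nuf2: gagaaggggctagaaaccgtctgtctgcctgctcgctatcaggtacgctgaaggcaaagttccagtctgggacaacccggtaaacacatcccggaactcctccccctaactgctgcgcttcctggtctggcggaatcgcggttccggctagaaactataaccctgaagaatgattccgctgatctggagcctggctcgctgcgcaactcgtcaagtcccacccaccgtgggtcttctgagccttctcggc
Ccnb2: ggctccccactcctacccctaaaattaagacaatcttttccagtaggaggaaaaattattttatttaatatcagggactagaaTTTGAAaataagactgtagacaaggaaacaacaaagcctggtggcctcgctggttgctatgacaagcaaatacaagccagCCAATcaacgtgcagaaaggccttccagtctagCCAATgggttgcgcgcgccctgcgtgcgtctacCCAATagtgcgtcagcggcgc
In Cenpw the CCAAT letters run into the reverse complement of TTTGAA and share 1 base with it, starting 29 and 25 bases before the gene's start. In Kif11 both elements stand on the other strand, 45 and 19 bases before the start. Ccnb2 holds CCAAT 3 times, the nearest 21 bases before the start, and TTTGAA at 167 bases. Nuf2 holds neither set of letters in this window. Over the 37 members, 29 promoters (78.4%) held CCAAT and 13 (35.1%) held TTTGAA, against 34.5% and 16.3% of all 27025 promoters of the same length. Both were held by 11 of 37 (29.7%), against 5.73% of all promoters. Of 29 S phase genes with a promoter, 17 (58.6%) held CCAAT, 4 (13.8%) TTTGAA and 3 (10.3%) both. Of 81 other mitotic genes with a promoter, 40 (49.4%) held CCAAT, 22 (27.2%) TTTGAA and 16 (19.8%) both, and of 8 T cell markers 2 held each element and the same number both. The median in vivo ratio was -1.31 for the 13 members with TTTGAA and -1.21 for the 24 without, and -1.24 and -1.20 for the 29 with and the 8 without CCAAT. These are matches of letters, not measured sites. Counted as lower in vivo were 13 of the 13 members with TTTGAA and 19 of the 24 without. For CCAAT the counts were 25 of the 29 with and 7 of the 8 without. The relation between element and ratio was not tested.

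At day 3 the comparison asked how IL-1β changes cells while it is present in culture. None of the 41 genes met the rule at day 3, where 2.15% of 7962 compared genes were counted as lower and 1.29% as higher. Their median log2 ratio was -0.23, against -0.05 for all compared genes, with 32 ratios below 0 and 9 above. The intervals of 12 of the 41 genes lay apart with the lower value in the IL-1β culture, and those of 1, Birc5, with the higher value there. Over all compared genes, these shares were 12.7% and 5.69%. Espl1 came closest to the rule, at 8.96 FPKM (7.13 to 10.7) with IL-1β, against 18.6 FPKM (16.0 to 21.3) without (-0.98), and with a pseudocount of 0.1 it was counted as lower. Mki67 stood at 37.8 FPKM (34.5 to 41.05) and 66.6 FPKM (62.2 to 70.9) (-0.80). Birc5 stood at 249 FPKM (220 to 278) and 157 FPKM (135 to 179) (0.66).

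The day 3 ratios moved with transcript length. Across all 7240 compared genes with a known length the Spearman correlation was -0.58, and across the 41 members it was -0.43. The genes of one comparison share both libraries and are not independent. Among the 20 members with transcripts longer than the median of 3334 bases, 2 ratios were above 0 and the median was -0.38. Among the other 21, 7 were above 0 and the median was -0.10. With the length trend removed the members' day 3 median was -0.12, with a range from -0.66 to 0.79. In vivo the correlation with length was -0.08 across the members and -0.01 across 7884 genes, and 19 of the 20 longer and 17 of the 21 shorter members were counted as lower. The part of length in the day 3 differences was not tested further.

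**Figure D4:**
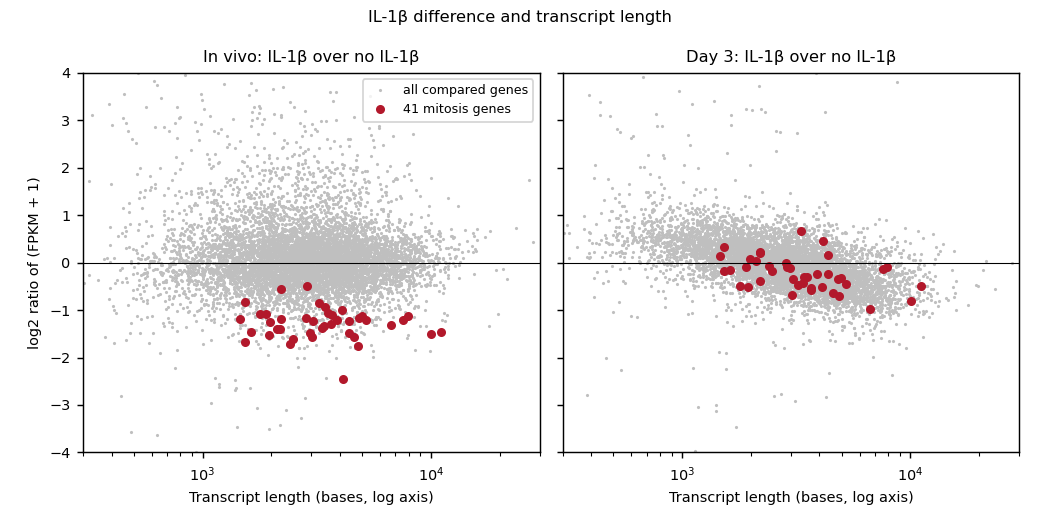
Log2 ratio of (FPKM + 1), IL-1β over no IL-1β, against transcript length on a log axis, in vivo (left) and at day 3 (right), with grey points for all compared genes and red points for the 41 mitosis genes. The vertical axis ends at -4 and 4, and the few points beyond the axes are left out. In vivo the red points lie below 0 at every length, and at day 3 they follow the downward slope of the grey points.

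In vivo cells were also compared with day 3 cells within each arm, to follow the genes from culture into the mouse. In the arm with IL-1β, 23 of 40 compared genes were counted as lower in vivo and 0 as higher, with a median of -1.06, where 5.87% of 8572 compared genes were counted as lower and 12.0% as higher. In the arm without IL-1β, 0 of 41 were counted either way, the median was -0.01, and every ratio lay between -0.49 and 0.44. There 0.665% of 8126 compared genes were counted as lower and 2.13% as higher. In that arm 0 of the 41 genes had intervals that lay apart in either direction, against 3.1% (higher) and 3.51% (lower) of all compared genes. In both arms, transcripts of other cell types stood higher in the in vivo library. Of the compared markers of stroma, endothelium and epithelium, 13 of 13 were counted as higher with IL-1β and 7 of 8 without it. The comparisons of in vivo with day 3 share libraries with those of IL-1β. The difference between the arms could not be tested, because each arm has 1 library per stage.

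In the IL-1β arm Birc5 stood at 60.7 FPKM in vivo and 249 FPKM at day 3 (-2.02), and Cenpw at 1.07 and 18.95 FPKM (-3.27). Ube2c stood at 139.1 and 414.8 FPKM (-1.57), Nuf2 at 10.99 and 34.7 FPKM (-1.57), Cdca8 at 27.0 and 83.8 FPKM (-1.60) and Ccnb2 at 26.5 and 79.1 FPKM (-1.54). In the arm without IL-1β the same genes stood at 158.7 and 157 FPKM (Birc5), 10.3 and 13.5 FPKM (Cenpw), 370.1 and 357.1 FPKM (Ube2c), 38.4 and 36.6 FPKM (Nuf2), 76.3 and 93.1 FPKM (Cdca8) and 86.03 and 89.5 FPKM (Ccnb2). In that arm the deposited intervals of each of these pairs overlapped. Espl1 (7.74 against 8.96 FPKM), Kif15 (10.4 against 13.9 FPKM), Kif4 (8.49 against 13.2 FPKM) and Mki67 (25.3 against 37.8 FPKM) had the smaller differences of the IL-1β arm, with log2 ratios of -0.19, -0.39, -0.58 and -0.56. Plk1, Kif23 and Nusap1 were no longer counted as lower in this arm once the median ratio of all genes, or of the T cell markers, was scaled to 1, which left 20 of 40. Ratios in this arm also moved with transcript length, with a Spearman correlation of 0.44 across the 41 members and 0.36 across 7814 genes. The 21 shorter members had a median of -1.12 with 15 counted as lower, and the 20 longer ones a median of -0.83 with 8 counted as lower. With the length trend removed, 22 members were counted as lower, with 4 of the earlier calls lost and 3 gained.

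The order of the 41 genes by level was alike in the 4 poly(A) libraries. The Spearman correlation over the 41 genes was 0.98 between in vivo and day 3 without IL-1β, and 0.97 between in vivo with and without IL-1β. It was 0.96 between in vivo and day 3 with IL-1β. These correlations are over genes and describe the libraries. Ube2c was the highest of the 41 in each, and the lowest were Cenpw in vivo with IL-1β (1.07 FPKM), Ttk in vivo without it (8.32 FPKM), and Anln at day 3 with and without it (4.99 and 8.35 FPKM).

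Other mitosis genes, from a list that shares no member with the 41, gave a broader view. Of 109 listed symbols 104 were found and 102 were compared in vivo, and 41 of these were counted as lower with IL-1β and 0 as higher, with a median of -0.89. Over all genes compared in vivo, 3.48% were counted as lower and 6.23% as higher. The condensin subunits had 5 of 8 counted as lower (median -1.12) and the spindle and cytokinesis genes 17 of 25 (median -1.29). The structural subunits and regulators of the anaphase-promoting complex had 2 of 14 (median -0.29), and these 2, Fzr1 (28.7 against 66.0 FPKM, -1.17) and Fbxo5 (22.2 against 46.3 FPKM, -1.03), encode an activator and an inhibitor of the complex. Among genes above 0 in both libraries, the largest differences were those of the kinetochore gene Ska1 (2.30 against 14.1 FPKM, -2.19), the spindle-pole gene Aspm (1.55 against 8.22 FPKM, -1.86) and the spindle gene Troap (7.38 against 28.1 FPKM, -1.80). Oip5, a centromere gene, was listed at 0 in vivo with IL-1β and at 23.6 FPKM without it, and at day 3 it was listed at 0 without IL-1β and at 15.7 FPKM with it. At day 3, 5 of 102 of the list were counted as lower and 2 as higher, among them Pds5a (9.53 against 33.4 FPKM, -1.71), Cit (2.32 against 7.10 FPKM, -1.29) and Anapc13 (168.8 against 45.6 FPKM, 1.86), whose day 3 value with IL-1β lies above its own interval (68.4 to 128). Over all genes compared at day 3, 2.15% were counted as lower and 1.29% as higher. In vivo against day 3, 28 of 98 of the list were counted as lower and 1 as higher in the IL-1β arm (median -0.68), against 0 and 1 of 101 in the other arm (median -0.03). The shares of all compared genes were 5.87% lower and 12.0% higher in the IL-1β arm, and 0.665% and 2.13% in the other.

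Of 21 compared regulators of the mitotic program, 3 were counted as lower in vivo with IL-1β and 0 as higher, with a median of -0.47. Over all genes compared there, 3.48% were counted as lower and 6.23% as higher. Foxm1, the forkhead factor that drives many G2 and M phase genes, stood at 15.6 FPKM (12.5 to 18.7) with IL-1β, against 56.7 FPKM (50.3 to 63.0) without (-1.79). At day 3 it stood at 26.5 FPKM (22.4 to 30.6) and 49.98 FPKM (44.5 to 55.4), with intervals apart and under 2-fold (-0.89). E2f1 (11.9 against 29.3 FPKM, -1.23) and E2f2 (17.04 against 36.1 FPKM, -1.04), activators of S phase genes, were the other 2. The B-Myb gene Mybl2 stood at 5.49 and 9.91 FPKM (-0.75) and the repressor E2f4 at 95.1 and 88.4 FPKM (0.10), and neither met the rule.

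S phase genes, whose products copy DNA, also stood lower in vivo with IL-1β. All 36 ratios were below 0, and 6 of 36 were counted as lower, against 3.48% of all compared genes, with a median of -0.74. Tk1, the thymidine kinase gene, stood at 30.8 and 99.7 FPKM (-1.66), Lig1, the replicative DNA ligase gene, at 43.9 and 105.4 FPKM (-1.24), and Cdc6, which licenses origins, at 6.16 and 15.8 FPKM (-1.23). Rfc4, a clamp loader subunit gene, was listed at 0 with IL-1β and at 38.3 FPKM without it. At day 3 the median was -0.01, and 1 of 36, the DNA polymerase gene Pole (7.09 against 17.9 FPKM, -1.23), was counted as lower, against 2.15% of all compared genes. The difference between the mitosis and the S phase genes was not tested, since both lists rest on the same 2 libraries.

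G1 and quiescence genes had 3 of 21 counted as higher in vivo with IL-1β and 1 as lower, with a median of 0.22, where 6.23% of all compared genes were counted as higher and 3.48% as lower. The higher ones were Klf2 (180.6 against 68.0 FPKM, 1.40), a factor of resting T cells, Klf4 (25.7 against 7.17 FPKM, 1.71) and the antiproliferative gene Tob1 (33.2 against 14.2 FPKM, 1.17). Cdk6, the G1 kinase gene, was lower at 6.71 and 17.1 FPKM (-1.23), and at day 3 it was counted as lower too, at 7.48 and 16.8 FPKM (-1.07), as was the forkhead factor gene Foxo3 at 2.71 and 10.5 FPKM (-1.63). These were 2 of 19 compared at day 3, where 2.15% of all compared genes were counted as lower. The CDK inhibitor genes Cdkn1a (207 against 137 FPKM, 0.59) and Cdkn1b (52.1 against 30.7 FPKM, 0.74) did not meet the rule. Klf2 and Klf4 are also transcribed in other cell types, endothelium among them. Its marker Pecam1 stood at 34.5 FPKM in vivo with IL-1β, against 21.3 FPKM without it. The 13 compared markers of stroma, endothelium and epithelium had ratios from 0.67 to 2.87, with a median of 1.72, and Pecam1 lay at the low end. The part of such cells in these differences was not tested.

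**Figure D5:**
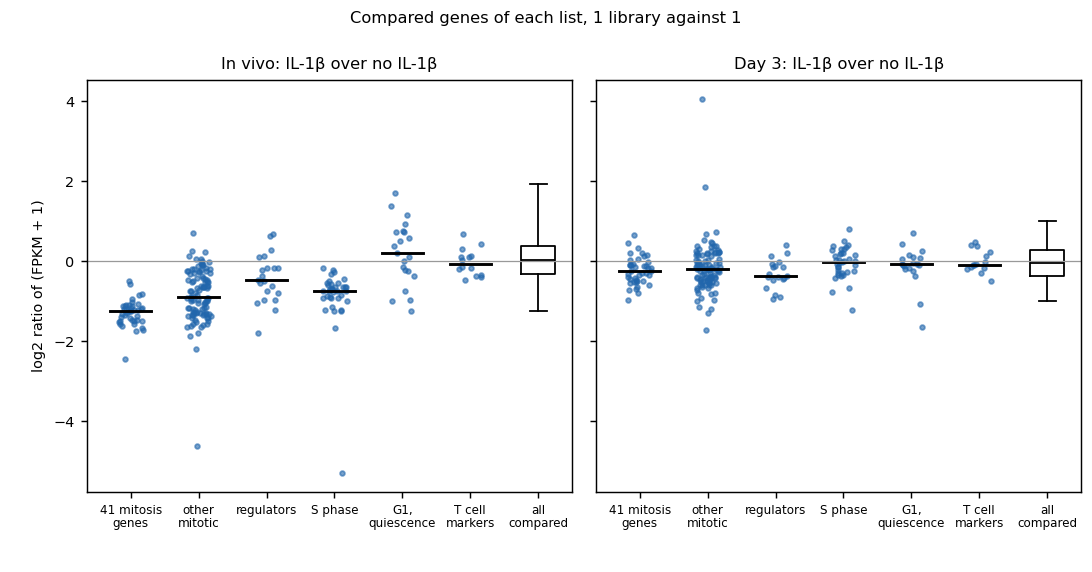
Log2 ratio of (FPKM + 1), IL-1β over no IL-1β, for the compared genes of 6 lists (points, black line at the median) and for all compared genes (box from the lower to the upper quartile, whiskers over the middle 95%), in vivo (left) and at day 3 (right). In vivo the medians are -1.24 for the 41 mitosis genes, -0.89 for other mitotic genes, -0.74 for S phase genes and -0.06 for T cell markers.

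At 1 h the mitosis genes were near the bottom of the scale. With IL-1β the 41 genes summed to 11.1 FPKM and 22 were listed at 0, and without it they summed to 9.58 FPKM and 31 were listed at 0. The highest values were 2.04 FPKM for Mki67 with IL-1β, against 3.61 FPKM for Cenpa without it. None reached the 5 FPKM needed for a comparison between the arms, in which 7.72% of 933 compared genes were counted as higher with IL-1β and 0.214% as lower. At day 3 all 41 genes were counted as higher than at 1 h without IL-1β, and all 40 compared with IL-1β. As 95.7% and 95.5% of all compared genes were counted as higher there, and 0.299% and 0.595% as lower, these counts say nothing particular about mitosis genes. The median log2 ratio of the mitosis genes was 5.23 without IL-1β and 4.88 with it, against 3.44 and 3.25 for all compared genes. That of the T cell markers was 4.79 and 4.48. The change from rRNA-depleted to poly(A)-selected RNA and the time in culture cannot be told apart.

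Limma was fitted over 8946 genes for the IL-1β difference shared by all 3 stages, with stage as a covariate. It called 0 of the 41 genes and 0 genes in all (0% of genes) at a Benjamini-Hochberg adjusted p of 0.05, with a smallest adjusted p of 0.937. Before adjustment, 3 of the 41 and 320 genes in all had a p under 0.05. The fitted differences of the 41 genes ran from -1.05 to 0.06 on the log2 scale, with a median of -0.46. Without the 1 h stage, where these genes are near 0, the median was -0.79. The test then called 0 of the 41 and 34 genes in all (0.382%), and the smallest limma adjusted p among the 41 was 0.375. Before adjustment, 16 of the 41 and 688 of all 8901 genes had a limma p under 0.05. The in vivo minus day 3 difference common to both arms was called by limma for 0 of the 41 genes and for 202 genes in all (2.26%). Before adjustment, 1 of the 41, Cenpw (log2 difference -1.81, SE 0.66, limma adjusted p = 0.431), and 697 of all 8946 genes were below 0.05. Without the 1 h stage it was called for 0 of the 41 and 408 genes in all (4.58%). These fits leave 2 residual degrees of freedom per gene, or 1 without the 1 h stage. The error of a gene starts from how far its difference between the arms varied from stage to stage. Limma then draws it towards a value shared by all fitted genes, so the p-values do not rest on the gene's own spread alone. A difference between the arms that is present at a single stage adds to this error.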

How the data were processed

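RNA-seq of 6 mouse libraries, 1 per group, was analysed. The deposited files give the authors' FPKM per gene and 2 bounds of an interval, per the file headers. The submitters' processing notes name TopHat and mm9. For the tool behind the gene values, the interval level and the depth, the sources used here give nothing. Of 23700 entries per file, 285 with a status other than OK were left out, and entries sharing a symbol were summed, which gave 23091 symbols. Positions come from the files (mm9), and starts had 1 added.

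From these values 7 comparisons of 1 library with another were made by the rule given in the text, with a pseudocount of 1 FPKM. Limma 3.58.1 in R 4.3.3 was fitted on log2(FPKM + 1) for genes at 5 FPKM or more in any library, and p-values were Benjamini-Hochberg adjusted. Other steps used Python 3.11.15, matplotlib 3.10.9, statsmodels 0.14.6, scipy 1.17.1, pandas 2.3.3 and numpy 2.4.6. Transcript length is that of the longest GENCODE M21 basic transcript, matched by symbol for 91.1% of genes at 5 FPKM in a poly(A) library, and the trend with length was smoothed by lowess (fraction 0.3). The members, lists and tests were chosen with earlier results of these data known. All 41 members may be named, and of 10 other lists the called genes, up to 4 by size, and a few for level. Spc24, Fzr1, Fbxo5, Incenp, Sftpc and Lyz2 were named after their values were seen. Alternatives were pseudocounts, filters, scalings, the length trend, the interval rule and the largest entry per symbol.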

Additional observations from a re-analysis of the deposited data

Results flagged for a closer look

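For 9 of the 41 genes the log2 ratio of IL-1β over no IL-1β had opposite signs in vivo and at day 3, below 0 in vivo and above 0 at day 3. They were Cdk1 (-1.24 in vivo and 0.16 at day 3, a difference of -1.40), Birc5 (-1.37 in vivo and 0.66 at day 3, a difference of -2.03) and Ube2c (-1.41 in vivo and 0.22 at day 3, a difference of -1.62). To these came Cdca3 (-1.25 in vivo and 0.07 at day 3, a difference of -1.32), Cenpa (-1.19 in vivo and 0.14 at day 3, a difference of -1.33) and Cenpw (-2.45 in vivo and 0.46 at day 3, a difference of -2.91). The remaining ones were Ndc80 (-0.56 in vivo and 0.20 at day 3, a difference of -0.76), Spc25 (-0.82 in vivo and 0.33 at day 3, a difference of -1.15) and Kif22 (-1.40 in vivo and 0.03 at day 3, a difference of -1.43). The difference between the stages was not tested, since each stage has 1 library per arm, and none of the 9 met the rule at day 3. Of the 9, Ndc80 and Spc25 did not meet it in vivo either. The share of all genes with opposite signs was not computed. All 41 ratios were below 0 in vivo, so these 9 are simply the members with a day 3 ratio above 0. Among them the day 3 intervals lay apart for Birc5 alone, and those of the others overlapped. The shift of day 3 ratios with transcript length touches these values, and its part in the opposite signs was not tested.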

How the results depend on the processing

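The direction of the members' difference in vivo was the same under the 9 alternatives tried. The count of members lower with IL-1β in vivo ran from 27 (pseudocount 5) to 37 (pseudocount 0.1) around 36, and the median from -1.26 to -1.09. For 27 of the 36 genes the call held under all 9. In vivo against day 3 with IL-1β, the count ran from 16 to 25 around 23, and 13 of 23 calls held under all 9. At day 3 a pseudocount of 0.1 gave 1 lower gene in place of 0. Without IL-1β, in vivo against day 3 gave 0 calls under every alternative. Day 3 against 1 h depended on the scale: without IL-1β the count of higher genes was 17 when scaled to all genes, 2 when scaled to T cell markers and 17 without the length trend, since most members then fell under the 5 FPKM floor, and with IL-1β it was 18, 3 and 12. The medians there, 5.23 without IL-1β and 4.88 with it under the main rule, moved with these settings. Without IL-1β they were 7.92 and 3.34 (pseudocounts of 0.1 and 5), 2.87 (all genes), 3.13 (T cell markers) and 3.06 (length). With IL-1β they were 7.23, 3.09, 2.72, 3.49 and 3.09. Limma, to whose error a difference between the arms at a single stage adds, called 0 members under every alternative. Over all genes it called 34 for IL-1β without the 1 h stage, against 0, and for in vivo minus day 3 it called 48 with a pseudocount of 0.1 and 408 without the 1 h stage, against 202. The cause was not tested. No paired analysis was possible because the labels give no replicate numbers, and the limma fit, with stage as a covariate, sets the arms against each other within stages. Depth is unknown, so the deposited intervals alone limit low genes such as Cenpw.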
